A study of Mus musculus with 16 samples.

Results

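Antibody classes and the transport of IgA were followed in the terminal ileum through 10 genes, chosen by name out of the 23299 genes in the deposited table. They were the heavy chain constant genes Igha, Ighm, Ighd, Ighg1, Ighg2b and Ighg2c, the kappa light chain constant gene Igkc, and Jchain, Mzb1 and Pigr. RNA had been sequenced from whole ileal tissue of Tas1r3+/+ (wild type, WT) mice and of mice that lack the sweet and umami taste receptor subunit TAS1R3 in every cell (Tas1r3-/-, knockout, KO), with littermates as controls, both on a C57BL/6 background. From a few weeks of age, each genotype received either a normal diet with plain water (ND) or a Western diet (WD) made of a 60% fat diet and a 30% sucrose solution, both for 10 weeks, and the study asked how the receptor shapes the response of the gut to the WD. The labels list 16 samples, 4 in each of WT-ND, KO-ND, WT-WD and KO-WD, with 2 males and 2 females per group, and 13 libraries entered the comparisons: 4 of WT-ND, 2 of KO-ND, 4 of WT-WD and 3 of KO-WD. Both KO-ND libraries were male, because both columns labelled female in that group could be written as weighted averages of its male columns. The 2 female KO-WD columns were not independent of each other either and were averaged into 1 library. The 13 libraries held 8 males and 5 females.

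IgA is the antibody that the gut secretes. Plasma cells of the lamina propria join IgA units into dimers with the J chain, encoded by Jchain, and the polymeric immunoglobulin receptor of the epithelium, encoded by Pigr, carries the dimer through the enterocyte into the lumen. A B cell first makes IgM and IgD from the same transcript and later switches to IgG or IgA by replacing the constant gene, and a change at the 3′ end of the transcript turns a membrane receptor into a secreted antibody.

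The deposited values, not whole numbers, were taken to be RPKM, reads divided by transcript length and by a library total. On that reading the values can be compared between genes per length. They were scaled between libraries and are called scaled RPKM below. The depth was 7003819 to 12384396 reads assigned to transcripts per library, and the members rested on 20105 to 88855 reads per library for Igha, 11358 to 70649 for Igkc, 8495 to 59014 for Pigr and 1632 to 10821 for Jchain. Counts were lower for Ighm (108 to 1916 reads), Ighg2b (54 to 582) and Mzb1 (77 to 243) and lowest for Ighd (9 to 381), Ighg1 (7 to 2900) and Ighg2c (0 to 46). Tas1r3 itself lay at 1.56 to 2.09 scaled RPKM in WT-ND and at 4.33 to 6.65 in WT-WD, and at no more than 0.00532 in any KO library. Its transcript is 1 of 102, out of 59258, with a value written to more digits than the other transcripts, as are transcripts of the list genes Cldn7, Krt19, Il6, Adipoq and Fabp4, while 0 of the 17 transcripts of the members are, and how these values were made is not given in the sources used here. The ileal bile acid genes Fabp6 (741 to 8821) and Slc10a2 (19.7 to 208) were present in every library. The reads assigned to transcripts came to 82.9% to 109% of the library total that the RPKM values imply in the ND libraries and to 66.4% to 77.2% in the WD libraries. Both WT-ND females were over 100%, so which total the authors divided by is not settled, and this percentage and the diet cannot be told apart. Before scaling, the RPKM of a library summed to 817011 to 819916 on the ND and to 542371 to 685274 on the WD. The ND and WD values may thus have been normalised differently, and this sum cannot be told apart from the diet. In bulk tissue, fewer cells of a type and less RNA per cell cannot be told apart either.

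All 10 genes were found, in 17 transcripts, and all 10 passed the filter on low values. The 6 heavy chain genes lie on the minus strand of chromosome 12 (GRCm38), from Ighm at chr12:113418558-113422730 through Ighd, Ighg1, Ighg2b and Ighg2c to Igha at chr12:113254830-113260236. Igkc lies on chromosome 6, Jchain on chromosome 5 and Pigr on chromosome 1. For Igha and Ighm the table held a secreted and a membrane transcript, which share 972 and 1305 coding bases and differ at the 3′ end. The coding bases of the secreted ends are shown because they carry the cysteine that binds the J chain, which is in capitals as the next-to-last codon, and the membrane end of Ighm is shown because its share of the transcripts is given further on. They were read from the reference annotation of GRCm38, 5′ to 3′.
Ighm-201, secreted end, chr12:113420870-113420928: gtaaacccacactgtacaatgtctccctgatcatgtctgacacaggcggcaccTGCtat
Igha-201, secreted end, chr12:113258771-113258829: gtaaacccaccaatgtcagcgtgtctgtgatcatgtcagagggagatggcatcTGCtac
Ighm-202, membrane end, spliced between chr12:113418829 and 113419068: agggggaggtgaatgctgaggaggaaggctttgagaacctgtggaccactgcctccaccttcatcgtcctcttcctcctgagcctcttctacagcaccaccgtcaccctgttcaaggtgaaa
The secreted ends of both genes are 59 bases long and have the same base at 40 positions (67.8%), counted from the 5′ end, and the membrane end of Ighm is 122 bases long.

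Igha and Igkc were among the most abundant RNAs of the ileum. Igha, the constant region of IgA, had 2591 and 4605 scaled RPKM in the WT-ND males, 3006 and 1570 in the WT-ND females, 6244 and 7621 in the KO-ND males, 6904 and 4346 in the WT-WD males, 3149 and 3198 in the WT-WD females, 8986 and 4652 in the KO-WD males and 2053 in the KO-WD female. Igkc, the constant region of the kappa light chain, had 4253 and 5932 in the WT-ND males, 3616 and 2306 in the WT-ND females, 8041 and 10097 in the KO-ND males, 10761 and 6457 in the WT-WD males, 4691 and 5994 in the WT-WD females, 14807 and 6625 in the KO-WD males and 2699 in the KO-WD female. The lowest level of both genes was in the second WT-ND female and the highest in the first KO-WD male. Ranked by RPKM within a library, Igkc stood between place 2 and place 39 of all genes and Igha between place 5 and place 47. Igkc made up 87.1% to 96.7% of the light chain constant RPKM (median 91.9%), the rest being the lambda genes Iglc1, Iglc2 and Iglc3, of which the last 2 are near-identical copies whose reads can be split between them.

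The J chain and the epithelial receptor followed at lower levels. Jchain had 156 and 269 scaled RPKM in the WT-ND males, 96.3 and 75.1 in the WT-ND females, 255 and 393 in the KO-ND males, 635 and 377 in the WT-WD males, 247 and 502 in the WT-WD females, 818 and 458 in the KO-WD males and 208 in the KO-WD female. The ND and WD ranges overlapped only between 208 and 393. Pigr had 775 and 650 in the WT-ND males, 502 and 1068 in the WT-ND females, 665 and 369 in the KO-ND males, 382 and 610 in the WT-WD males, 367 and 627 in the WT-WD females, 246 and 345 in the KO-WD males and 591 in the KO-WD female. The 2 lowest Pigr levels were in the KO-WD males and the highest in a WT-ND female. Mzb1, which encodes a chaperone of the endoplasmic reticulum that helps to assemble and secrete antibody in marginal zone B cells and plasma cells, had 9.98 and 12 in the WT-ND males, 15.3 and 6.38 in the WT-ND females, 18.8 and 21.2 in the KO-ND males, 18.0 and 15.6 in the WT-WD males, 8.80 and 28.7 in the WT-WD females, 29.4 and 16.9 in the KO-WD males and 11.3 in the KO-WD female. Both KO-ND libraries lay above every WT-ND library for Mzb1.

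The classes other than IgA were rare. Of the RPKM summed over Ighm, Ighd, Igha and the IgG genes, with Ighg3 included, Igha took 95.3% to 99.6% (median 98.9%), Ighm 0.185% to 2.94%, Ighg2b 0.123% to 1.52% and Ighg1 0.0130% to 3.19%. The share of Igha was lowest in the first WT-ND female, where Ighm was highest, and next lowest in the first KO-WD male, where Ighg1 was highest. Ighe, the constant gene of IgE, was not analysed here.

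Ighm, the constant region of IgM, had 7.54 and 8.56 scaled RPKM in the WT-ND males, 92.8 and 22.8 in the WT-ND females, 15.4 and 22.0 in the KO-ND males, 34.2 and 23.9 in the WT-WD males, 24.6 and 39.7 in the WT-WD females, 41.3 and 14.4 in the KO-WD males and 31.9 in the KO-WD female. Ighd, the constant region of IgD that marks mature B cells before class switching, had 0.469 and 1.28 in the WT-ND males, 15.6 and 2.16 in the WT-ND females, 1.19 and 0.958 in the KO-ND males, 4.26 and 6.33 in the WT-WD males, 2.87 and 9.42 in the WT-WD females, 11.7 and 1.40 in the KO-WD males and 6.35 in the KO-WD female. For both genes the first WT-ND female was the highest of the 13 libraries, and the WT-ND males held the lowest values for Ighm.

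The IgG genes lay at a similar level. Ighg2b had 4.71 and 5.69 in the WT-ND males, 28.1 and 7.79 in the WT-ND females, 10.1 and 13.1 in the KO-ND males, 17.6 and 23.4 in the WT-WD males, 5.26 and 50.3 in the WT-WD females, 33.0 and 7.38 in the KO-WD males and 12.4 in the KO-WD female. Ighg1 had 4.72 and 0.600 in the WT-ND males, 3.88 and 6.63 in the WT-ND females, 2.64 and 2.25 in the KO-ND males, 4.71 and 2.64 in the WT-WD males, 1.33 and 3.53 in the WT-WD females, 299 and 1.46 in the KO-WD males and 1.90 in the KO-WD female. The first KO-WD male thus stood apart for Ighg1, on 2900 reads, while every other library lay at or below 6.63 scaled RPKM. Ighg2c, which C57BL/6 mice carry in place of Ighg2a, was at most 3.06 scaled RPKM, in the first WT-ND female, and had no read in the second WT-ND male.

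**Figure D1:**
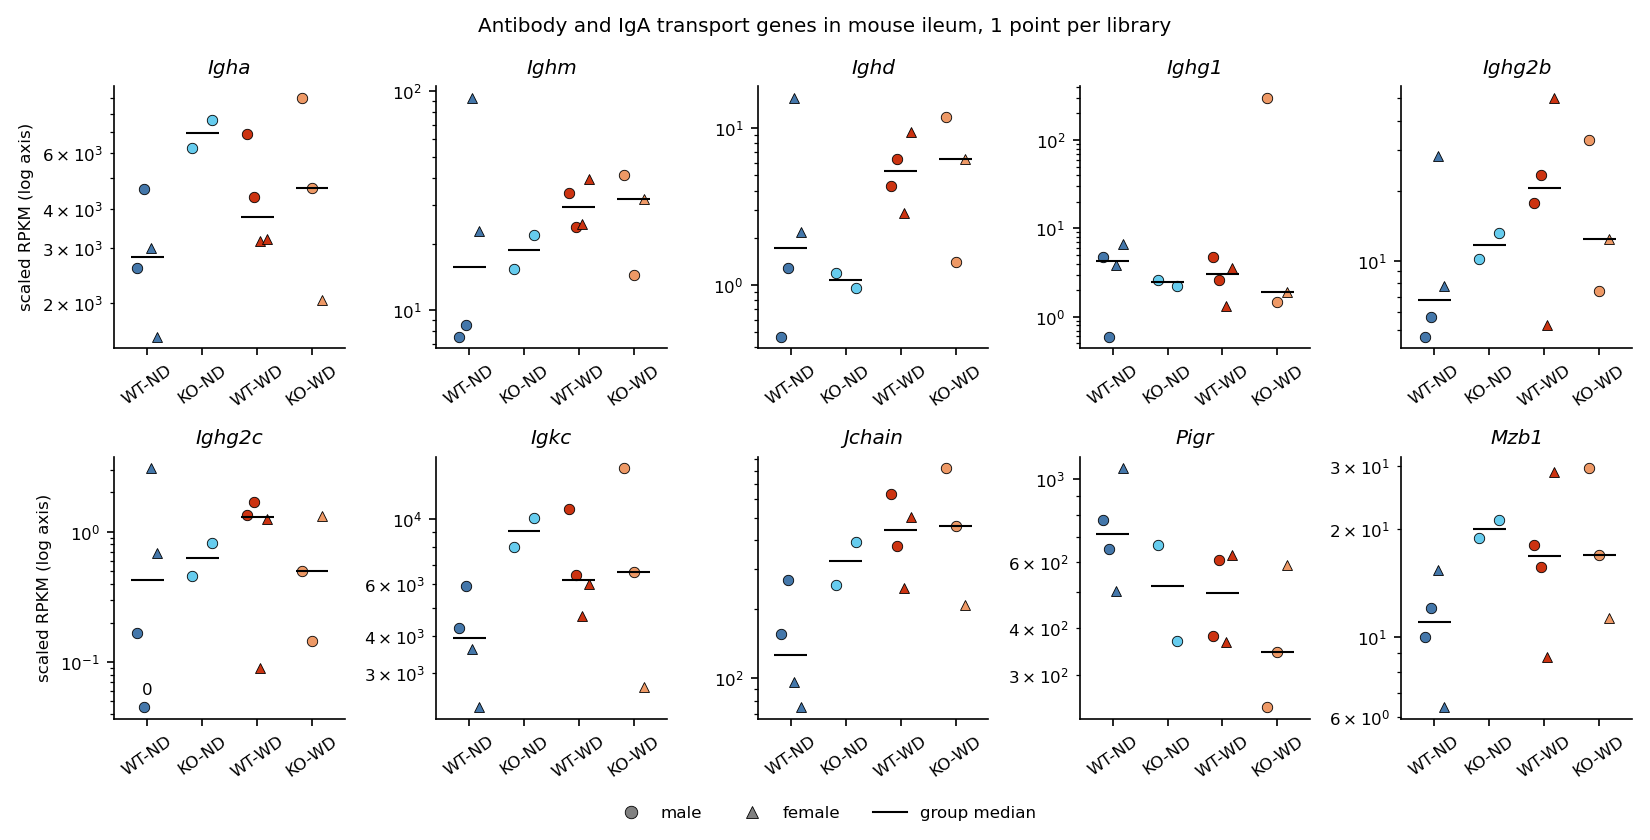
Scaled RPKM of the 10 genes in each library (log axis, 1 panel per gene with its own range) for WT-ND, KO-ND, WT-WD and KO-WD, with circles for males, triangles for females and a bar at the group median; a value of 0 is drawn at the foot of its panel. The first KO-WD male stands apart for Ighg1 at 299 scaled RPKM, and the groups overlap in most panels.

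Genotype on the ND was compared first. Igha was 2.52-fold higher in KO-ND than in WT-ND (log2 1.33 ± 0.60 SE, 95% confidence interval 0.02 to 2.64, n = 2 and 4, limma, adjusted p = 0.895). Igkc (log2 1.24), Jchain (log2 1.26) and Mzb1 (log2 0.91) were also higher, each with an adjusted p of 0.895. Pigr differed by log2 -0.54 (adjusted p = 0.895), and of the 10 members only Igha had an unadjusted p under 0.05. Igha, Igkc and Mzb1 did not overlap between the groups, 3 of 10 members, where 22.0% of the 19042 genes tested did not overlap in this comparison. The two-sided exact permutation p was 0.0667 for Igha and for Igkc, the smallest that 2 against 4 libraries allow. KO-ND held males only, and among males alone the Igha difference was log2 1.03 (adjusted p = 0.555) and that of Igkc log2 0.87 (adjusted p = 0.583), so sex was not balanced in this comparison. Ighm moved from log2 -0.08 to 1.18 when males alone were compared (adjusted p = 0.555). Beside these differences, 12 of 17 plasma cell markers lay higher in KO-ND, 2 of them with a limma p under 0.05 (4.73% of all genes), and 8 of 10 epithelial markers lay lower, none with a p under 0.05. Their part in the differences was not tested.

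On the WD the genotypes lay closer together, and for all 10 genes the ranges overlapped, where 2.84% of all genes did not. Igha differed between KO-WD and WT-WD by log2 0.08 ± 0.53 (SE, n = 3 and 4, 95% confidence interval -1.07 to 1.24), Igkc by -0.05, Jchain by 0.04 and Mzb1 by 0.12. These values turned on single libraries, since Igha differed by log2 -0.41 and Igkc by -0.63 without the first KO-WD male, and by 0.63 and 0.57 without the KO-WD female. Pigr differed by log2 -0.38 ± 0.37 (limma, adjusted p = 1.00). Ighg1 had the widest difference, log2 1.76 ± 1.36 (adjusted p = 1.00), and without the first KO-WD male it was -0.60. The intervals for Igha and Jchain reach past a 2-fold difference in both directions, so this comparison does not show that the genotypes have equal levels. The difference between the genotype contrasts of the 2 diets, the genotype by diet interaction, was log2 -1.25 ± 0.80 for Igha, -1.29 ± 0.86 for Igkc and -1.21 ± 0.77 for Jchain (adjusted p = 1.00 for each).

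Diet was compared within each genotype and across both. In WT mice, Jchain was 3.13-fold higher on the WD (log2 1.65 ± 0.47 SE, 95% confidence interval 0.62 to 2.68, n = 4 and 4, limma, adjusted p = 0.148, exact permutation p = 0.0571). Igha differed by log2 0.61 (adjusted p = 0.576), Igkc by 0.80 (adjusted p = 0.477), Mzb1 by 0.63 (adjusted p = 0.434) and Pigr by -0.58 (adjusted p = 0.431). In KO mice, Jchain differed by log2 0.43 ± 0.61 and Igha by -0.65 ± 0.64, and Ighd was the only member that did not overlap, higher in all 3 KO-WD libraries than in both KO-ND libraries (log2 1.79, adjusted p = 0.925). The Ighd difference was log2 1.21 without the first KO-WD male and 2.55 without the second. The share of all genes without overlap was 20.9% in this comparison and 10.5% in WT mice, where no member lacked overlap. KO-WD against KO-ND again sets 2 males and 1 female against 2 males.

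Across both genotypes, Jchain was 2.06-fold higher on the WD (log2 1.04 ± 0.39, adjusted p = 0.194) and Ighd 2.60-fold higher (log2 1.38 ± 0.63, adjusted p = 0.286), by limma over 6 ND and 7 WD libraries. The level of Igha differed by log2 -0.02 ± 0.40 and that of Igkc by 0.16 ± 0.43. Pigr differed by log2 -0.50 ± 0.28 (adjusted p = 0.383). With sex as a covariate Jchain differed by log2 1.21 (adjusted p = 0.0401), and Pigr as deposited, without scaling, by -0.94 (adjusted p = 0.0145), where the median of all genes had itself moved to -0.36. Among males alone Ighm differed in WT mice by log2 1.78 (adjusted p = 0.161), against 0.61 with both sexes, and Ighg2b by 1.88 (adjusted p = 0.193), against 1.01. The first WT-ND female, the highest library for Ighm and Ighd, also bore on these values, and without it Ighm differed in WT mice by log2 1.35 (adjusted p = 0.247), Ighd by 1.78, against 0.97, and Ighg2b by 1.55. Across genotypes Ighd then differed by log2 1.78 (adjusted p = 0.112) and Ighm by 0.94 (adjusted p = 0.192). Without the first KO-WD male, Jchain differed across genotypes by log2 0.81 (adjusted p = 0.335).

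The counts of members were read against those of all genes. With the thresholds of the study, an adjusted p of 0.01 and a 2-fold change, 0 of 10 members were called in any of the 7 comparisons. Over all 19042 genes tested, this rule called 0.0105% between KO-WD and WT-WD, 0.0% between KO-ND and WT-ND, 0.00525% between WT-WD and WT-ND, 0.0% between KO-WD and KO-ND, 0.0% for the interaction, 0.0315% for diet across genotypes and 0.042% between females and males. At an unadjusted limma p under 0.05 the members passing were 0 of 10 between KO-WD and WT-WD (2.65% of all genes), 1 between KO-ND and WT-ND (4.73%), 1 between WT-WD and WT-ND (15.5%), 0 between KO-WD and KO-ND (5.49%), 0 for the interaction (1.43%), 2 for diet across genotypes (17.0%) and 4 between females and males (19.3%). The median difference of the 10 members was log2 0.62 between WT-WD and WT-ND, beside 0.02 over all genes, and 0.40 for diet across genotypes, beside 0.01. For KO-WD against WT-WD it was -0.07, beside -0.01.

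**Figure D2:**
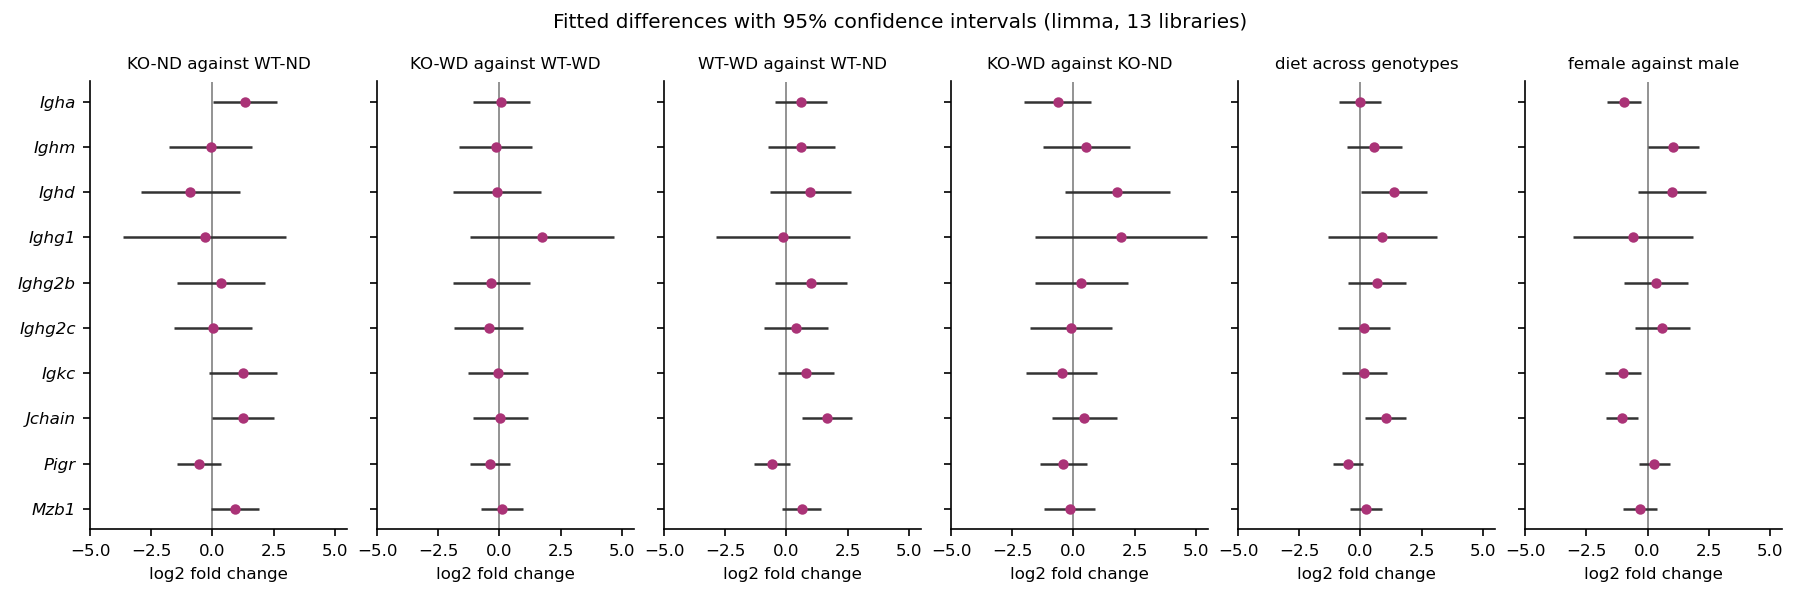
Fitted log2 differences of the 10 genes (points) with 95% confidence intervals (lines) in 6 comparisons, from limma over 13 libraries, with zero marked by a vertical line. The interval of Jchain lies above zero for WT-WD against WT-ND (0.62 to 2.68) and for diet across genotypes (0.20 to 1.88), and the Ighg1 intervals are the widest.

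Ratios within a library do not depend on the scaling between libraries. Per unit of Igha, Jchain was more abundant on the WD in every library. The ratio of Jchain to Igha was 0.0604, 0.0584, 0.0320 and 0.0479 in the WT-ND libraries (2 males, then 2 females) and 0.0408 and 0.0515 in the KO-ND males. On the WD it was 0.0920, 0.0867, 0.0783 and 0.157 in the WT libraries, and 0.0910, 0.0985 and 0.101 in the KO libraries (2 males, then the female). The highest ND ratio was thus 0.0604 and the lowest WD ratio 0.0783. The WD-to-ND fold was 2.06 in WT mice (exact permutation p = 0.0286, the smallest that 4 against 4 libraries allow, adjusted p = 0.747 over 28 tests of 7 ratios) and 2.11 in KO mice (exact permutation p = 0.1, the smallest that 3 against 2 allow). When diet was permuted within each genotype, a test chosen after the values had been seen, the fold across genotypes was 2.09 (exact permutation p = 0.00143, the smallest that 700 arrangements allow, adjusted p = 0.01 over the 7 ratios). Leaving out each library in turn gave a fold of 1.94 to 2.21, and males alone gave log2 0.82 (exact permutation p = 0.0556, the smallest that 36 arrangements allow). The genotypes had a ratio of 0.973 to each other on the WD (exact permutation p = 0.971) and of 0.951 on the ND (p = 0.933).

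The same separation was described, with no test, for related ratios that were picked after the values had been seen. Jchain to Igkc was 0.0266 to 0.0453 on the ND and 0.0526 to 0.0837 on the WD. Jchain-201, which encodes the protein, stood to Igha at 0.0283 to 0.0539 on the ND and 0.0718 to 0.137 on the WD, and Jchain-202, which retains an intron, at 0.00371 to 0.00643 and 0.00647 to 0.0204. All 3 ratios were without overlap between the diets, that of Jchain-202 only narrowly. They reuse Jchain, and Igkc followed Igha at r = 0.97, so they largely repeat the first ratio and add no separate evidence. How many other genes separate the diets against Igkc was not counted. The 19041 other genes tested were also set against Igha, here with a small constant added to each level. Of these, 2 (0.0105%) were higher on the WD in every library without overlap, Jchain and Trbv13-1. The latter is a T cell receptor segment that differed by log2 4.37 between the diets (limma, adjusted p = 2.15e-05). Igha itself varied 5.72-fold over the 13 libraries. A gene that neither follows Igha nor differs widely between the diets could therefore hardly separate them in this ratio. For that reason the low share cannot show how unusual Jchain is. Genes lower on the WD in every library are not given here. The percentage of assigned reads and the summed RPKM given above also separated the diets, and their part in the Jchain ratio was not tested.

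Mzb1 stood lower relative to Jchain on the WD. Mzb1 to Jchain was 0.0447 to 0.159 in WT-ND, 0.0539 and 0.0740 in KO-ND, 0.0284 to 0.0572 in WT-WD and 0.0360 to 0.0544 in KO-WD, so the diets overlapped. Across genotypes the fold was 0.574 (exact permutation p = 0.0114, adjusted p = 0.0400 over 7 ratios, from the same test chosen after the values had been seen). Males alone gave log2 -0.72 (exact permutation p = 0.0556). This ratio shares Jchain with the first one, and the level of Mzb1 itself differed by log2 0.23 ± 0.30 across genotypes. The ratio also differed with sex within groups, with a fold of 1.62 in females (exact permutation p = 0.0185, adjusted p = 0.0648 over 7 ratios). Pigr to Igha, a measure of receptor RNA per unit of IgA RNA, ranged from 0.0274 in the first KO-WD male to 0.681 in the second WT-ND female. Its fold was 0.438 between WT-WD and WT-ND (exact permutation p = 0.114) and 0.714 across genotypes (p = 0.516). Igha to Igkc stayed between 0.534 and 0.831 in the 13 libraries and differed by a fold of 0.885 across genotypes on the WD (exact permutation p = 0.0700). The IgG genes summed to 0.00137 to 0.0370 of Igha, with a fold of 2.05 across genotypes (exact permutation p = 0.316).

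**Figure D3:**
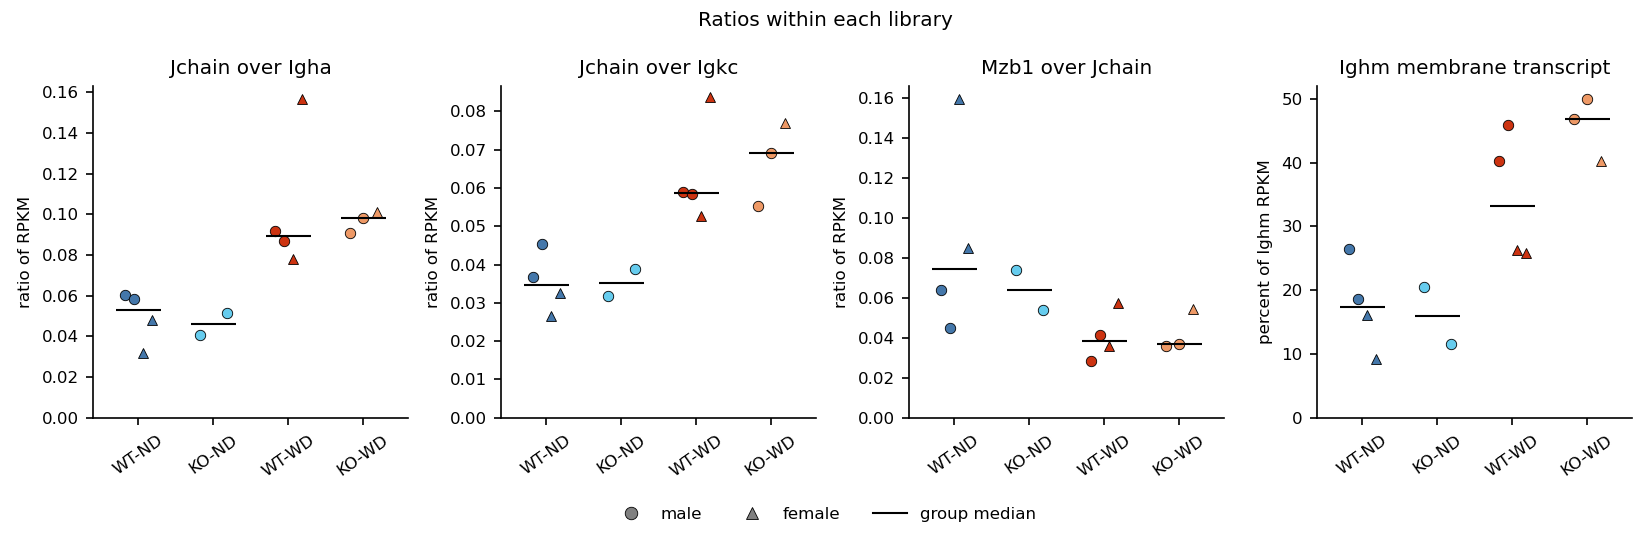
Jchain to Igha, Jchain to Igkc and Mzb1 to Jchain as ratios of RPKM, and the membrane transcript in percent of the Ighm RPKM, in each library by group (linear axes from 0), with circles for males, triangles for females and a bar at the group median. Every WD library lies above every ND library for Jchain to Igha, with 0.0604 as the highest ND and 0.0783 as the lowest WD ratio.

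The split between secreted and membrane transcripts was the authors' estimate, because the 2 forms share most of their bases. The membrane form, whose specific end is printed above, made up 26.4%, 18.7%, 16.1% and 9.25% of the Ighm RPKM in the WT-ND libraries (2 males, then 2 females) and 20.5% and 11.5% in the KO-ND males. On the WD it was 40.2%, 45.9%, 26.3% and 25.8% in the WT libraries and 46.8%, 50.0% and 40.2% in the KO libraries. The first WT-ND male lay just above the WT-WD females, and all other ND libraries lay below every WD library. This share was picked after the values had been seen and is given with no test. The membrane form of Igha made up no more than 0.0648% to 0.264% of its RPKM, and that of Ighg2b 2.52% to 7.59%, with the diets overlapping. For Ighd the table held only a membrane transcript and for Ighg2c only a secreted one.

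The IgA transcripts were lower in females than in males, short of the threshold. With the group as a covariate, females had 0.486 times the Jchain of males (log2 -1.04 ± 0.29, adjusted p = 0.0983), 0.514 times the Igha (log2 -0.96 ± 0.32, adjusted p = 0.139) and 0.495 times the Igkc (log2 -1.01 ± 0.34, adjusted p = 0.140), by limma. Igkc was lower in every female than in every male of the same group in all 3 groups that hold both sexes. A permutation of sex within those groups was also chosen after the values had been seen. It gave an exact p of 0.00926 for Igkc, the smallest that 108 arrangements allow. For Igha and for Jchain it gave 0.0278, and the adjusted p was 0.0926 for all of these genes. The Igha difference was log2 -0.67 in WT-ND, where the sexes overlapped, -0.79 in WT-WD and -1.65 in KO-WD. The only KO-WD female is an average of 2 columns. Without it, limma gave log2 -0.73 for Igha, -0.73 for Igkc and -0.87 for Jchain. Ighm went the other way, 2.08-fold higher in females (log2 1.06 ± 0.48, adjusted p = 0.254), and without the first WT-ND female the difference was log2 0.57. The ratio of Igha to Ighm was 181 to 538 in the males and 32.4 to 128 in the females, without overlap. Within groups this was a fold of 0.242 (exact permutation p = 0.00926, adjusted p = 0.0648 over 7 ratios). How many of all genes separate the sexes as Igkc and this ratio do was not counted. At a limma p under 0.05, 19.3% of all genes differed between the sexes.

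Markers of other cells moved with sex as well. The 10 T cell markers summed to 10.8 to 42.3 scaled RPKM in males and 29.3 to 71.5 in females, and 8 of the 10 had a limma p under 0.05 (19.3% of all genes) with higher levels in females. In the same direction went 5 of the 12 B cell markers tested and 5 of the 6 adipocyte markers, whose sums were 28.8 to 225.8 in males and 81.8 to 233.6 in females. The 17 plasma cell markers were split, with 10 lower and 7 higher in females and a median of log2 -0.06. Of the 17, 4 had a p under 0.05 (19.3% of all genes) with lower levels in females. Among them was Tent5c, a poly(A) polymerase that stabilises secretory RNAs in plasma cells. Tent5c had 5.66 and 5.61 scaled RPKM in the WT-ND males, 2.33 and 1.77 in the WT-ND females, 8.53 and 7.29 in KO-ND, 7.84 and 6.68 in the WT-WD males, 3.45 and 3.82 in the WT-WD females, 10.1 and 6.71 in the KO-WD males and 3.58 in the KO-WD female. No female overlapped with a male, a separation not counted over all genes, and the difference was log2 -1.09 ± 0.15 (limma, adjusted p = 0.0192). The part of these cells in the sex differences was not tested.

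Across the 13 libraries the log2 levels of the members were compared in pairs, given here as Pearson correlations with no test, over libraries that differ in depth and tissue make-up. Igha and Igkc had r = 0.97, and Jchain went with Igkc at 0.86 and with Igha at 0.78, and Mzb1 with Igha at 0.74. Mzb1 had r = 0.74 with Ighg2b as well. Ighm, Ighd, Ighg2b and Ighg2c also went together, with r = 0.89 between Ighm and Ighd, 0.83 between Ighd and Ighg2b and 0.80 between Ighm and Ighg2c. Igha had r = 0.00 with Ighm and -0.02 with Ighd. Pigr was negative with the IgA transcripts, at -0.71 with Igha and with Jchain and at -0.70 with Igkc. The highest r of Ighg1 was 0.46, with Ighg2b.

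**Figure D4:**
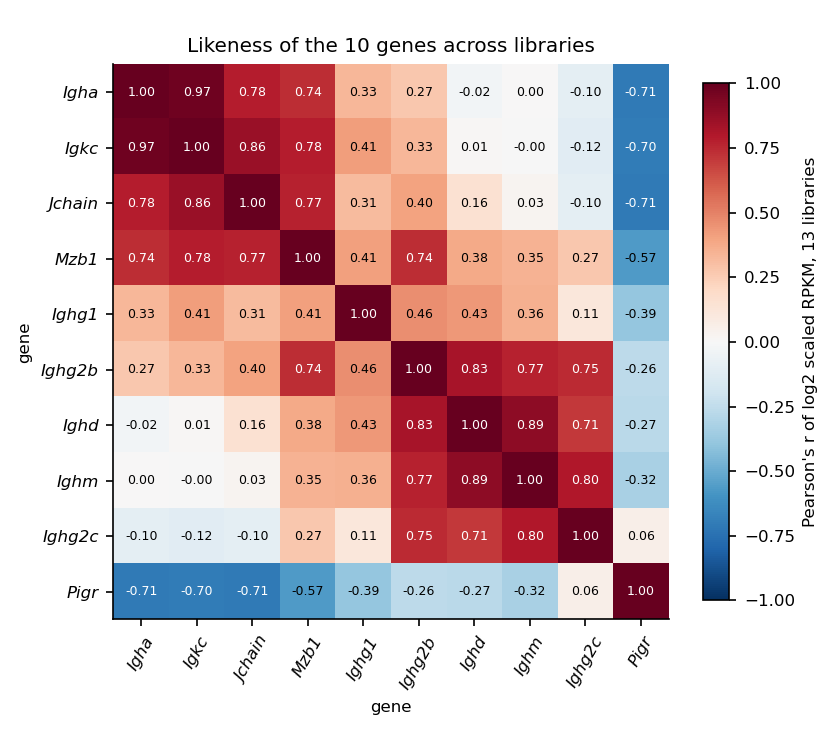
Pearson correlation of log2 scaled RPKM between each pair of the 10 genes over 13 libraries, from -1 to 1 by colour. The correlation is 0.97 between Igha and Igkc and 0.89 between Ighm and Ighd, Mzb1 has 0.74 with both Igha and Ighg2b, and Pigr has -0.71 with Igha.

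Marker lists of cell types were compared with the members in the same way. For r, the mean log2 level of the genes of a list was used. The sums given beside it are of scaled RPKM, a different measure led by the most abundant genes of a list. Ighd had r = 0.97 and Ighm 0.91 with the mean of the B cell markers. That list includes Ms4a1 and Cr2, genes of B cells such as those in the follicles of Peyer's patches. Other lists, described further on, came near these values. Ighm had r = 0.92 with the homing genes and 0.86 with the antibody receptors, and Ighd 0.85 and 0.83. The B cell list summed to 10.8 to 107 scaled RPKM in WT-ND, with 107 in the first WT-ND female. It summed to 18.9 to 20.5 in KO-ND, 29.9 to 69.5 in WT-WD and 20.7 to 70.0 in KO-WD. The same female also had the most pancreatic RNA, 17.8 scaled RPKM over 4 of 7 markers found, beside 0 to 6.08 elsewhere. Jchain and Mzb1 had r = 0.70 and 0.74 with the plasma cell list. Igha had 0.48 with it, beside 0.57 with the macrophage and 0.50 with the smooth muscle list. The plasma cell list summed to 425 to 702.5, and Igha did not follow that sum. Its highest level, 8986 in the first KO-WD male, went with a sum of 543, and its lowest, 1570 in the second WT-ND female, with 649. Several genes of the list, such as Xbp1 and Hsp90b1, are also used by epithelial secretory cells. Pigr had r = 0.86 with the epithelial list, which summed to 5884 to 10126 in WT-ND, 6364 to 6544 in KO-ND, 5131 to 11184 in WT-WD and 3330 to 8444 in KO-WD. With the same list Igha and Igkc had r = -0.69 and Jchain -0.54. On the WD, 9 of the 10 epithelial markers lay lower across genotypes, 1 of them with a limma p under 0.05 (17.0% of all genes), and all 12 B cell markers tested lay higher, 2 of them with a p under 0.05. The parts of epithelial and B cell content in the differences of Pigr, Ighm and Ighd were not tested.

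**Figure D5:**
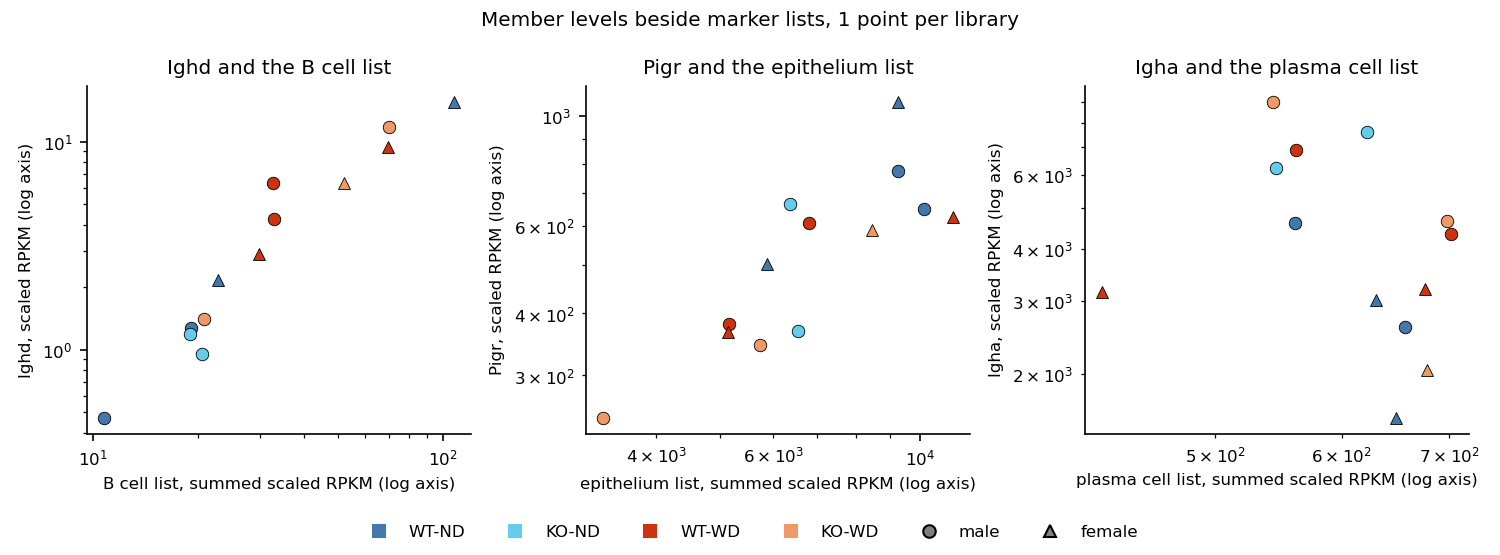
Scaled RPKM of Ighd, Pigr and Igha (log axes) against the summed scaled RPKM of the B cell, epithelial and plasma cell lists, 1 point per library, coloured by group, with circles for males and triangles for females. Ighd is higher where the B cell list is higher, up to the first WT-ND female at 15.6 and 107, and Pigr where the epithelial list is higher, while Igha spreads widely over a narrow range of the plasma cell list (425 to 702.5). The axes show sums, while the correlations in the text use the mean log2 level of a list.

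Other genes that act on IgA were counted from fixed lists, and 0 of them had an adjusted p under 0.05 in any comparison. Of the switching and survival factors, such as Tnfsf13 and Tgfb1, 9 were tested and 8 lay higher on the WD across genotypes, none with a limma p under 0.05. In WT mice 1 of them had a p under 0.05 (15.5% of all genes), also with a higher level on the WD. The 12 homing genes include the chemokines Ccl25 and Ccl28 and the integrin genes Itga4 and Itgb7, which guide plasma cells to the gut wall. Across genotypes 8 of the 12 lay higher on the WD and 4 lower, and 3 had a p under 0.05 (17.0% of all genes), all higher. Ccl25 had both its lowest level, 84.7 in the first KO-WD male, and its highest, 605 in the second WT-WD female, on the WD. Of the 9 antibody receptors, such as the neonatal Fc receptor gene Fcgrt, 3 had a p under 0.05 between WT-WD and WT-ND (15.5% of all genes), all higher on the WD, and 2 between KO-WD and WT-WD (2.65%), both lower in KO-WD. Of the 7 known inducers of Pigr that were tested, such as Il17ra, Myd88 and Irf1, 6 lay lower on the WD across genotypes, none with a p under 0.05, and 3 were higher in females at that p (19.3% of all genes). Of the 4 other constant genes, Ighg3, Iglc1, Iglc2 and Iglc3, all lay higher in KO-ND than in WT-ND, 1 with a p under 0.05 (4.73% of all genes).

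The genes most like 3 of the members, out of 18801 genes outside the immunoglobulin segments, were named by their correlation over the 13 libraries. For Igha these were St6gal1 (r = 0.92), a sialyltransferase of antibody-producing cells, Dhrs7 and Tnfrsf13b, which encodes the receptor TACI for the survival factors BAFF and APRIL, each at 0.88, and Tent5c (0.88), Ctc1 (0.87) and Mindy4 (0.86). For Pigr they were Gm12929, Cdkn2b, Xpnpep1, Lima1, Slc22a23 and Mapk3, with r from 0.92 to 0.94. For Ighg2b they were Tnfrsf13c (r = 0.89), which encodes the BAFF receptor of B cells, H2-Oa, Pou2f2, Myo1g, Pou2af1, a coactivator of immunoglobulin genes, and 1700028B04Rik, with r down to 0.82.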

How the data were processed

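The authors isolated poly(A) RNA from ileal tissue, removed rRNA, sequenced Ion Total RNA-Seq libraries on an Ion Proton, aligned the reads with STAR in Partek Flow to mm10 (GRCm38) and counted Ensembl transcripts. The deposited values were taken to be RPKM for each transcript, that is reads divided by transcript length and by a library total. The deposited matrix is named as raw counts, but its values are not whole, so a count test was not used and limma took its place.

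RPKM of a gene's transcripts were summed, and a gene was kept when 2 or more of the 13 libraries had an RPKM of 1 or more (19042 of 23299, all 10 members). Scaling factors between libraries were TMM-type, trimming 30% of the log ratios and 5% of the levels, and log2(scaled RPKM + 0.5) was fitted in limma 3.58.1 (R 4.3.3) with a trend and 4 groups in 1 model, with Benjamini-Hochberg adjustment over all genes tested. Fold changes are on this scale and understate low genes. Ratios were tested by two-sided exact permutation in Python 3.11.15 (numpy 2.4.6, pandas 2.3.3, scipy 1.17.1). The fits were tested on simulated data.

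Sequences and coordinates came from the annotation and genome of GRCm38. Implied reads were the RPKM multiplied by transcript length, over the smallest step in a library. No column of values was without a sample (0). The members and gene lists were chosen with earlier results of these data known. All members are named in each comparison, list genes where an adjusted p was under 0.05, and other list genes as examples of their list. The labels number the samples but do not say how replicates were obtained beyond sex, so p-values measure the spread between these libraries, which may be partly technical. Alternatives covered scaling, pseudocount, filter, sex, the replicate block, the samples in the fit, related columns and array weights.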

Additional observations from a re-analysis of the deposited data

Results flagged for a closer look

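In 4 of the 48 groups of 4 libraries checked, 1 library lay apart from the others by Dixon's test, where chance gives about 1 in 20. The first WT-ND female was apart for Ighd, with 15.6 scaled RPKM beside 0.469 to 2.16 in the other WT-ND libraries (gap over range 0.888), and for Ighg2b, with 28.1 beside 4.71 to 7.79 (0.868). It was also low for the retained-intron transcript Jchain-202 relative to Igha, at 0.00371 beside 0.00608 to 0.00643 (0.87). The second WT-WD female was high for Jchain-201 relative to Igha, at 0.137 beside 0.0718 to 0.0818 (0.846). The B cell list of the first WT-ND female was the highest of the 13 libraries, at 107 scaled RPKM, and its part in these values was not tested.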

How the results depend on the processing

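The count of members called was 0 under every alternative tried for each comparison between 2 groups. Of 1956 values of single members under an alternative, 108 differed in sign from the value given in the report, 1 of them with a limma p under 0.05 (Ighm between KO-ND and WT-ND in males alone), 44 moved by at least 1 SE and 9 had an adjusted p under 0.05. These 9 were Jchain between WT-WD and WT-ND (log2 2), across genotypes (1.27) and between the sexes (-1.14), Igkc between WT-WD and WT-ND (1.26) and Pigr between WT-WD and WT-ND (-0.92) and across genotypes (-0.72), all with array weights, Pigr with RPKM as deposited (-1.04 and -0.94) and Jchain across genotypes with sex as a covariate (1.21). Leaving out each library in turn gave Jchain a difference of log2 0.81 to 1.30 across genotypes and 1.38 to 1.98 between WT-WD and WT-ND. Across genotypes it gave the ratio of Jchain to Igha log2 0.95 to 1.15, of Mzb1 to Jchain -0.94 to -0.63 and of Igha to Igkc -0.22 to -0.13, the last with an exact permutation p under 0.05 without the first WT-ND male or without the KO-WD female. In males alone these tests could not pass 0.05, with log2 0.82 for Jchain to Igha and -0.72 for Mzb1 to Jchain.

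Replicate numbers are shared between groups in the labels, but deviations of the 16 same-numbered pairs had correlations of -0.20 to 0.57 (median 0.07), with 7 over 0.1, so the numbers were not taken as a pairing. With the replicate block, 0 members were called, and Jchain differed by log2 1.65 between WT-WD and WT-ND (limma, adjusted p = 0.0866) and by 1.24 across genotypes (adjusted p = 0.0578). The low reads of Ighd, Ighg1 and Ighg2c limit what could be seen for these genes, and KO-ND rests on 2 libraries.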

Other observations

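The gene lists of other tissue components gave the following counts. All 8 macrophage markers lay higher in KO-ND than in WT-ND, none with a limma p under 0.05, and all 8 lay lower in KO-WD than in WT-WD, 3 of them with a p under 0.05 (2.65% of all genes), with sums of 90.6 to 171 scaled RPKM in KO-WD and 127 to 237 in WT-WD. The median interaction of these markers was log2 -0.82, and 1 of the 8 had a p under 0.05 (1.43% of all genes). All 8 smooth muscle markers lay higher in KO-ND than in WT-ND, with sums of 2008 to 3889 and 1138 to 3408, and 0 of them had a p under 0.05. All 6 adipocyte markers lay lower on the WD across genotypes, 1 with a p under 0.05 (17.0% of all genes), and the T cell markers lay higher in 8 of 10, also 1 with a p under 0.05. None of the genes on these lists had an adjusted p under 0.05 in these comparisons.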
